A study of Homo sapiens with 2 samples.

Results

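The transcription factor ATF4 and 9 genes it is known to regulate or to act beside were described in ribosome footprints of vehicle-treated HEK293 cells. HEK293 is an established human embryonic kidney cell line. The genes were given as a fixed list of 10 Ensembl gene IDs (ATF4, ASNS, PSAT1, PHGDH, PSPH, SHMT2, MTHFD2, PCK2, CEBPG and DDIT4). The rule that lists them uses no measured value, although it was written with earlier results of these data known. All 10 were present among the 57820 IDs of the table. The 2 libraries, each from 2 pooled plates, form 1 group: both came from cells kept in DMSO vehicle for 12 h without heat shock. Replicate 1 belonged to batch 1 and replicate 2 to batch 2, so batch and replicate cannot be told apart. Minocycline-treated cells and matched RNA levels are not analysed here, so there was no contrast between conditions and no translational efficiency. IDs other than the 10 could not be paired with gene names here, so the markers of HEK293 and the other genes of the stress and one-carbon pathways could not be checked.

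In the integrated stress response, phosphorylation of the initiation factor eIF2 lowers general translation but raises translation of ATF4, whose mRNA carries short reading frames upstream of its coding sequence. ATF4 is a bZIP transcription factor that pairs with other bZIP proteins, among them CEBPG, and switches on genes for amino acid synthesis and uptake. PHGDH, PSAT1 and PSPH make serine from a glycolytic intermediate. SHMT2 and MTHFD2 then pass its one-carbon unit to folate inside mitochondria, a supply that dividing cells use to make nucleotides.

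Each value is a count of protected fragments of 27 to 29 nt assigned to a gene, given also as CPM, that is per 1000000 fragments of the library. Replicate 1 held 865838 fragments and replicate 2 held 611266, so 1 fragment is worth 1.15 CPM and 1.64 CPM. The 2 highest IDs, which are not among the 10 genes, took 17.6% of replicate 1 and 23.2% of replicate 2, and this lowers every other CPM more in replicate 2. Ratios between libraries were therefore scaled with TMM factors, which are set by the bulk of the IDs. Intervals are exact 95% intervals for counting error only; amplified fragments carry no molecular identifiers and are not independent molecules. Coding lengths were not used here, so a level is read between the libraries for 1 gene and not from one gene to another. Positions along the mRNA are not used either, so fragments on the upstream frames of ATF4 and fragments on its coding sequence cannot be told apart.

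The 10 genes together held nearly the same share of fragments in both libraries, while ATF4 and MTHFD2 moved apart within the set. The summed share was 0.0654% of replicate 1 (566 fragments, 95% interval 0.0601 to 0.0710) and 0.0682% of replicate 2 (417 fragments, 0.0618 to 0.0751), a mean of 0.0668% ± 0.00201 (SD, n = 2). After TMM scaling the ratio of the sums was 1.13. All 10 had at least 1 fragment in both libraries, and 9 had at least 10 in both, the exception being CEBPG. Of all 57820 IDs, 12262 were above 0 in both libraries, and how many had at least 10 in both was not computed. In fragments per gene, not per length, the mean CPM of the 9 with at least 20 summed fragments lay above that of between 7.35% (PSPH) and 88.0% (SHMT2) of the 6965 IDs with as many. The place of PSPH rested on the library, at 4.32% in replicate 1 and 15.9% in replicate 2, and was 59.8% among IDs with at least 1 summed fragment. Of the 6965 IDs, ATF4 stood above 27.7% in replicate 1 and above 69.7% in replicate 2, and MTHFD2 above 66.1% and 31.4%. Among IDs with at least 1 summed fragment, ATF4 stood above 68.6% and 86.9%, and MTHFD2 above 85.3% and 70.2%.

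**Figure D1:**
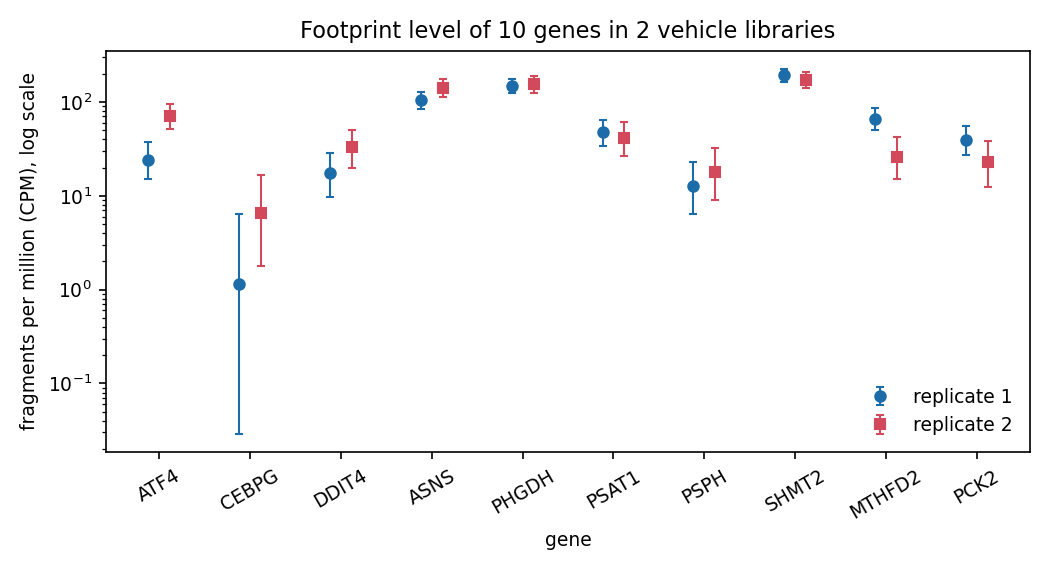
Footprint level of each of the 10 genes in CPM (vertical axis, log scale) in replicate 1 (blue circles) and replicate 2 (red squares), with bars for the exact 95% Poisson interval of the count. The intervals of the libraries do not overlap for ATF4, at 24.3 and 70.3 CPM, nor for MTHFD2, at 65.8 and 26.2 CPM, and they overlap for the other 8 genes. These CPM are not TMM-scaled, and how many of all IDs show no overlap was not computed.

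The regulators were read from few fragments. ATF4 (ENSG00000128272.10) had 21 fragments in replicate 1 and 43 in replicate 2, or 24.3 CPM (95% interval 15.0 to 37.1) and 70.3 CPM (50.9 to 94.8). Its level was higher in replicate 2. After TMM scaling the ratio of replicate 2 over replicate 1 was 3.13 (95% interval 1.82 to 5.55), a log2 ratio of 1.65. The mean level was 47.3 CPM ± 32.6 (SD, n = 2).

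CEBPG (ENSG00000153879.4), a bZIP partner of ATF4, had 1 fragment in replicate 1 and 4 in replicate 2, or 1.15 CPM and 6.54 CPM. With so few fragments its ratio of 6.11 had an interval from 0.605 to 301, and no difference between the libraries was detectable at this depth. DDIT4 (ENSG00000168209.4), a stress-induced inhibitor of the growth kinase complex mTORC1, had 15 and 20 fragments, or 17.3 CPM (9.70 to 28.6) and 32.7 CPM (20.0 to 50.5). Its ratio was 2.04 with an interval from 0.991 to 4.28, which just included equal levels. ATF4, CEBPG and DDIT4 thus had point values above 1, but the interval left out 1 for ATF4 alone of these 3.

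ASNS makes asparagine from aspartate and glutamine, and its promoter holds a classical binding element for ATF4 dimers. That element contains the letters TGATGNAA, which were searched on both strands of RefSeq promoter windows of 300 bases (250 before to 50 after a transcript start, build GRCh38.p14). Of the 10 genes, 8 had at least 1 window (11 windows in all), and ASNS and CEBPG were the 2 genes with a match. Among all 35116 windows of that length, 3.62% held a match, as did 4.46% of the 27305 genes with a window. The ASNS match was known in advance, because the letters are those of the element in its promoter. The 2 matches are therefore no measure of enrichment in the set. Whether ATF4 binds at the CEBPG match was not tested. The sequence around each match, where these letters occur in the windows of the set, is shown with the matching letters in capitals:
ASNS, minus strand, chr7:97872443-97872502: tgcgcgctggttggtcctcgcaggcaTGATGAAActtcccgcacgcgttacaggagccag
CEBPG, plus strand, chr19:33374045-33374104: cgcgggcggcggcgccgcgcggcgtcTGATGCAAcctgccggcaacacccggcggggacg
Both stretches of 60 bases end before the RefSeq start used for the window. The match lies 68 to 61 bases before the first listed of 2 ASNS starts, and 42 to 35 bases before the second of 2 CEBPG starts. The other window of each gene held no match. The windows of ATF4, PSAT1, PHGDH, MTHFD2, PCK2 and DDIT4 did not contain these letters, which says nothing about elements elsewhere in those genes or with other letters.

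ASNS (ENSG00000070669.12) had 91 and 86 fragments in replicates 1 and 2, or 105 CPM (84.6 to 129) and 141 CPM (113 to 174). The level was higher in replicate 2, although the intervals of the libraries overlapped. Its TMM-scaled ratio of 1.44 had an interval from 1.06 to 1.96, which left out 1 by a small margin. Scaling by library size gave a log2 ratio of 0.42 (-0.02 to 0.86), and with a 99% interval the TMM ratio also included equal levels.

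For none of the 3 serine synthesis enzymes did the interval of the ratio leave out 1. PHGDH (ENSG00000092621.7), the first and committed enzyme of the pathway, had 128 and 94 fragments, or 148 CPM and 154 CPM, a mean of 151 CPM ± 4.20 (SD, n = 2). Its ratio was 1.12 (0.850 to 1.48).

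PSAT1 (ENSG00000135069.9), the aminotransferase of the middle step, had 41 and 25 fragments, or 47.4 CPM and 40.9 CPM, and a ratio of 0.932 (0.543 to 1.57). PSPH (ENSG00000146733.9), the phosphatase that releases serine, had 11 fragments in each library, or 12.7 CPM and 18.0 CPM, and a ratio of 1.53 (0.601 to 3.89). Neither interval left out equal levels, and that of PSPH reached up to a 3.89-fold difference. The 3 serine enzymes together held 0.0208% and 0.0213% of fragments.

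Of the mitochondrial enzymes, SHMT2 (ENSG00000182199.6), which splits serine into glycine and a folate-bound one-carbon unit, had 167 and 104 fragments, which counts per gene and not per length. This was 193 CPM (165 to 224) in replicate 1 and 170 CPM (139 to 206) in replicate 2, with a ratio of 0.951 (0.738 to 1.22). Its level did not differ between the libraries beyond counting error.

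MTHFD2 (ENSG00000065911.7), the dehydrogenase and cyclohydrolase that oxidises that one-carbon unit, had 57 and 16 fragments, or 65.8 CPM (49.9 to 85.3) and 26.2 CPM (15.0 to 42.5). It was lower in replicate 2, the opposite direction to ATF4. The ratio was 0.429 (0.230 to 0.757), a log2 ratio of -1.22.

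PCK2 (ENSG00000100889.7), the mitochondrial enzyme that forms phosphoenolpyruvate from oxaloacetate, had 34 and 14 fragments, or 39.3 CPM (27.2 to 54.9) and 22.9 CPM (12.5 to 38.4). Its point value was also lower in replicate 2, but the ratio of 0.629 had an interval from 0.312 to 1.20, which includes equal levels.

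To place these differences, the same ratio was taken for all 6965 IDs with at least 20 summed fragments, which includes 9 of the 10 genes and leaves out CEBPG. The interval left out 1 with the higher level in replicate 2 for ATF4 and ASNS, 2 of the 9, against 13.4% of all IDs. It left out 1 with the higher level in replicate 1 for MTHFD2, 1 of the 9, against 13% of all IDs. In either direction this made 3 of 9, against 26.3% of all IDs, so the number of genes set apart is about what the table as a whole shows between these libraries. Scaled by library size, the shares of all IDs were 10.5% with the higher level in replicate 2 and 17.7% in replicate 1, and of the 9 genes ATF4 and MTHFD2 were set apart, 1 in each direction. None of the 9 intervals lay wholly beyond 2-fold, against 1.22% of all IDs. The median absolute log2 ratio was 0.61 over the 9 genes and 0.44 over the 6958 IDs above 0 in both libraries.

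ATF4 had the log2 ratio furthest from 0 of the 9 genes with at least 20 summed fragments. Its place among IDs of like depth is therefore that of the extreme of 9 genes. Of the 1727 IDs with 50 to 99 summed fragments, the band that holds ATF4, MTHFD2 and PSAT1, 1.16% had a higher ratio than ATF4 and 3.07% had a lower ratio than MTHFD2. In either direction, 2.14% of these IDs had a log2 ratio at least as far from 0 as that of ATF4, and 6.77% as that of MTHFD2. In that band, 13.8% of IDs were set apart with the higher level in replicate 2 and 10.3% with the higher level in replicate 1. For ASNS, 27.4% of the 1501 IDs with 100 to 299 summed fragments had a ratio at least as far from 0. In that band the share was 73.0% for PHGDH and 88.3% for SHMT2, and in the band of ATF4 it was 88.8% for PSAT1. Among the 2997 IDs with 20 to 49 summed fragments it was 25.4% for DDIT4, 45.6% for PCK2 and 50.7% for PSPH. The bands were set after the counts were seen, and these shares describe the spread of the table, in which genes are not replicates.

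**Figure D2:**
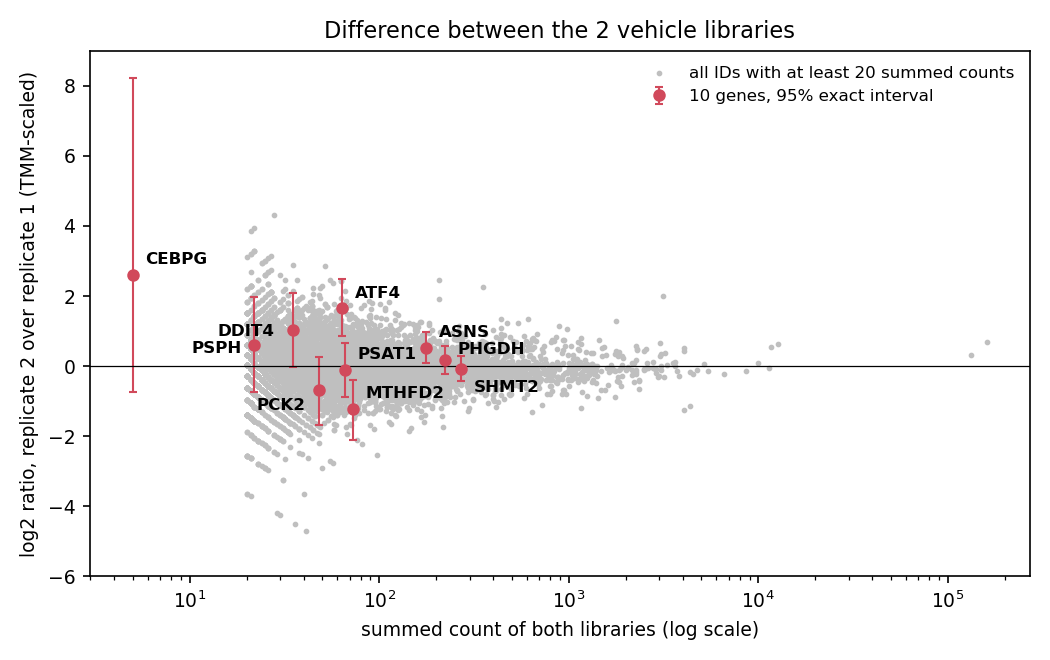
Log2 ratio of replicate 2 over replicate 1 after TMM scaling (vertical axis) against the summed count of both libraries (horizontal axis, log scale), for the IDs with at least 20 summed counts that were above 0 in both libraries (grey) and the 10 genes (red, with exact 95% intervals). ATF4 at 1.65 lies in the upper part of the cloud and MTHFD2 at -1.22 in its lower part, while PHGDH, PSAT1 and SHMT2 lie close to 0. Of the IDs with 50 to 99 summed counts, 1.16% lie above ATF4 and 3.07% below MTHFD2.

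The make-up of the set differed between the libraries while its total hardly did, most clearly at ATF4 and MTHFD2. ATF4 took 3.71% of the fragments on the 10 genes in replicate 1 and 10.3% in replicate 2. MTHFD2 took 10.1% and 3.84%. ASNS took 16.1% and 20.6%, and SHMT2 took 29.5% and 24.9%. The percents of a set are tied, so 1 gene cannot gain unless another loses. The interval of the SHMT2 ratio between the libraries included 1 (0.951, 0.738 to 1.22). That of ASNS left out 1 by a small margin (1.06 to 1.96). For every fragment on MTHFD2 there were 0.368 on ATF4 in replicate 1 and 2.69 in replicate 2, a 7.29-fold change of a ratio that no scaling of the libraries and no gene length can alter. This pair was singled out after the values were seen, so the figure is a description. PHGDH kept almost the same place, with 22.6% and 22.5% of the set. Without ATF4 and MTHFD2, the other 8 genes held 0.0564% and 0.0586% of all fragments.

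**Figure D3:**
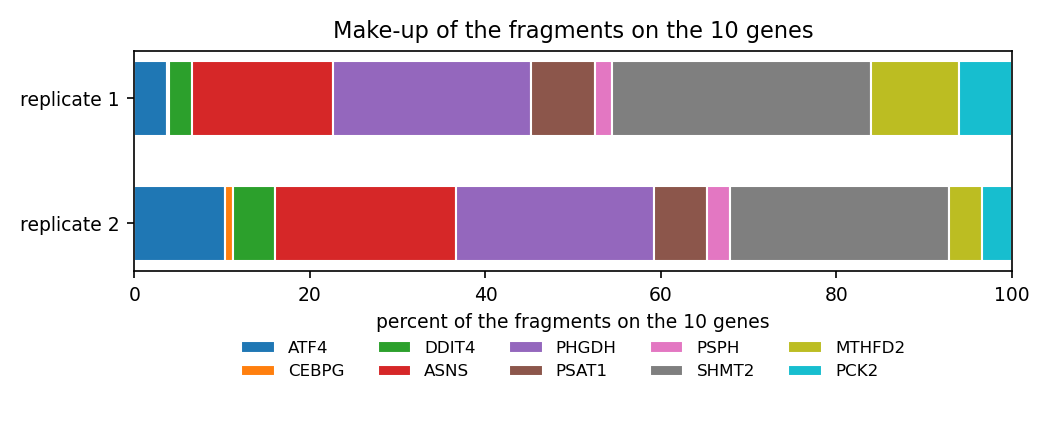
Percent of the fragments on the 10 genes that fell on each gene (horizontal axis), with 1 stacked bar for each library. ATF4 widens from 3.71% to 10.3% between replicate 1 and replicate 2, MTHFD2 narrows from 10.1% to 3.84%, and PHGDH stays near 22.6%.

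Grouped by role, a grouping made after the counts were seen and given without a test, the regulators ATF4, CEBPG and DDIT4 held 6.54% of the set in replicate 1 and 16.1% in replicate 2. The regulators without ATF4 held 2.83% and 5.76%, on only 16 and 24 fragments. The mitochondrial enzymes SHMT2, MTHFD2 and PCK2 held 45.6% and 32.1%, and 35.5% and 28.3% without MTHFD2. The serine enzymes held 31.8% and 31.2%.

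Steps of 1 pathway were then compared as ratios within a library, where scaling and length cancel between the libraries, for 5 pairs. The fragments on SHMT2 relative to MTHFD2, consecutive mitochondrial steps, were 2.21 times higher in replicate 2 than in replicate 1 (conditional exact interval 1.18 to 4.36). The 99% interval of this ratio of ratios included 1. How many other pairs of IDs would be set apart in this way was not computed. Of single IDs, 26.3% were set apart between these libraries. The ratio between the libraries was 0.951 for SHMT2 itself and 0.429 for MTHFD2.

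Among the serine enzymes no such shift was detectable. PHGDH relative to PSAT1 changed by a factor of 1.20 (0.662 to 2.22), PSAT1 relative to PSPH by 0.613 (0.206 to 1.82), and PHGDH relative to PSPH by 0.735 (0.276 to 1.96). ATF4 relative to CEBPG changed by 0.516, with an interval from 0.00993 to 5.66 that reflects the 5 CEBPG fragments. The depth does not resolve differences smaller than these intervals.

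Some of the 10 genes have pseudogene copies. The RefSeq gene table lists 21 pseudogenes named after 5 of the 10 genes: 7 for MTHFD2, 5 for ASNS, 4 each for ATF4 and PSAT1, and 1 for PSPH. It lists none under the names of the other 5. The deposited values of all 10 genes were whole numbers in both libraries, to within 0.001, whereas 15.2% and 13.9% of the values above 0 in the table were not. How fragments that match several places were assigned is not given in the sources used here, and its part in the ATF4 and MTHFD2 differences was not tested.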

How the data were processed

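The authors deposited 1 table of estimated counts of ribosome-protected fragments of 27 to 29 nt per Ensembl gene ID, with 1 unscaled column per library, per the labels. Per the labels' protocols, lysates with cycloheximide were digested with RNase I, monosomes were taken from size-exclusion columns, and ribosomal RNA was not depleted. The submitters' processing notes name the build hg19. Aligner, counter and annotation: not given in the sources used here. The 10 genes and all lists were chosen with earlier results of these data known, and all 10 genes are named.

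CPM used the sum of all IDs. Counts were rounded to whole numbers for ratios, which used TMM factors (edgeR 4.0.16, R 4.3.3) over IDs with at least 20 summed counts and conditional exact binomial intervals (Python 3.11.15, scipy 1.17.1). The intervals were checked on simulated counts that held counting error only. That check cannot cover the further spread between the real libraries, where 26.3% of IDs were set apart. Shares have Clopper-Pearson intervals. Nothing in the labels states independent cultures, so the spread between libraries may be partly technical. The reference table (59792 genes) pairs 0 of its entries with Ensembl IDs, so the 6 pathway lists (81 entries) were not used; levels per codon and protein features were not computed, because no protein sequences were used. Alternatives were scaling by library size or by DESeq2 1.42.0, minimums of 1 and 100 summed counts, 99% intervals, counts rounded down, the highest IDs left out of totals, and each replicate left out.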

Additional observations from a re-analysis of the deposited data

How the results depend on the processing

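The share of all fragments held by the 10 genes, 0.0668%, became 0.0841% once the total excluded the 2 highest IDs and 0.0896% once it excluded the 10 highest, which follows from the smaller total; without one replicate it ran from 0.0654% to 0.0682%. The number of genes set apart with the higher level in replicate 2 was 2, and 1 under library size, 1 with 99% intervals (ATF4 remained in both) and 1 with a minimum of 100 summed counts (ASNS, since ATF4 has only 64). The number with the higher level in replicate 1 was 1, and 0 with a minimum of 100, which leaves out MTHFD2. With 99% intervals, 8.43% of the 6965 IDs were set apart with the higher level in replicate 2 and 7.78% in replicate 1. These shares were 13.5% and 12.8% with DESeq2 scaling, and 10.5% and 17.7% by library size. No share of all IDs was computed for the minimum of 100. DESeq2 scaling did not change the number of genes set apart in either direction. Rounding counts down did not either, but it could hardly do so, since the values of all 10 genes were whole to within 0.001. The log2 ratio of ATF4 was 1.54 by library size and 1.65 with DESeq2, and that of MTHFD2 was -1.33 and -1.22. Of 115 alternative values of single genes and pairs, 18 (levels and percentiles) moved by more than 1 SD and 3 were no longer set apart: ASNS by library size and with a 99% interval, and SHMT2 relative to MTHFD2 with a 99% interval. That SD comes from the same 2 libraries, so a level cannot move beyond it when 1 replicate is left out. It is also wide where the libraries differ. The percentile of ATF4 went from 56.5% to 81.1% with a minimum of 1 summed count and was not counted as moved. The number 18 is thus no measure of how stable the values are. No direction of any of the 10 genes reversed under library size or DESeq2 scaling. Library size moved the median log2 ratio of all IDs from -0.0049 to -0.11. The order of the genes per codon, also planned, was not run without lengths. No paired analysis was possible because there is only 1 group. Counting error limits CEBPG, PSPH and DDIT4 most.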
